A study of Homo sapiens with 6 samples.

Results

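Mitosis and kinetochore genes are described here as 45 genes, chosen by name from the 60835 distinct gene names of the deposited count table. They comprise the mitotic cyclins with CDK1, the spindle checkpoint, the kinetochore, the chromosomal passenger complex, mitotic kinesins, spindle proteins and MKI67, TOP2A and FOXM1. The names were picked for their function, with earlier results of these data known. All 45 were found, each in 1 row.

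RNA was sequenced from HEY, an established human ovarian cancer cell line, in 3 libraries with a control siRNA (siNC) and 3 with an siRNA against CCNL2 (siCCNL2). CCNL2 codes for cyclin L2, which acts with CDK11 kinases in transcription and splicing. The labels give 48 h of CCNL2 siRNA for every library, controls included, and the control time was taken to be 48 h too. All cells are of this line in serum-containing medium, the siRNA sequences are not given in the sources used here, and nothing in the labels says that each library is a culture of its own. The p-values below therefore reflect library-to-library spread, which could be purely technical.

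Mitosis is driven by cyclin B bound to CDK1, which phosphorylates proteins that condense chromosomes and build the spindle. Kinetochores, protein plates on the centromeres, bind spindle microtubules through the NDC80 complex, and the spindle checkpoint blocks CDC20 and the anaphase-promoting complex until all are attached. Once released, that ubiquitin ligase has securin and cyclin B degraded, sister chromatids part, and kinesins and the passenger complex organise the midzone for cytokinesis. Most of these genes are transcribed only late in the cell cycle, and in tumour RNA they are widely used as a readout of proliferation. In RNA from a whole culture, a change in the number of dividing cells and a change in RNA per cell cannot be told apart.

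Total counts ran from 13596286 to 18095529 per library. CCNL2 itself stood at 261, 268 and 246 CPM (counts scaled to library size with TMM factors) in siNC replicates 1 to 3 and at 203, 182 and 186 in siCCNL2, a fall of 26.3% (log2 fold change -0.44, SE 0.044, adjusted p = 2.15e-08, edgeR's quasi-likelihood test). Epithelial and ovarian markers fitted the label only in part: KRT7, KRT8, KRT18 and PAX8 were abundant, while CDH1, MUC16 and FOLR1 stayed under 1 CPM in all 6 libraries. Their 10 genes summed to 2166 to 2241 CPM in siNC and 1652 to 1803 in siCCNL2. Of 7 tested, 5 were called lower, where 16.5% of all tested genes were. Only 1 of the 7 had a log2 fold change above 0 (0.58), and it was not called. All 6 immune markers were under 1 CPM in every library and CD68 was at 0. However, CD68 shares 81.7% of its exon bases with another gene on the same strand, so its count may not reflect its level. Of 4 endothelial markers 3 were tested and 2 were called lower, against the same 16.5%. CDH5 went from 111 to 117 CPM down to 43.9 to 53.3, and the 4 summed to 115 to 120 and 45.5 to 55.4 CPM. The 6 fibroblast markers summed to 19.0 to 20.6 and 11.6 to 14.4 CPM, with DCN at 0. The part of these markers in the results below was not tested.

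The promoters of these genes are shown first because many carry the same short elements. RefSeq windows from 250 bases before to 50 bases after the gene start were found for 38 of the 45 (build GRCh38.p14). None was found for AURKA, BIRC5, BUB3, FOXM1, TPX2, TTK and UBE2C. The splits by motif below therefore leave out BIRC5, the largest called rise, and BUB3, the only called fall. The windows were searched on both strands for CHR, the cell cycle genes homology region (TTTGAA, or TTCAAA on the other strand), which MuvB complexes bind, and for the NF-Y box (CCAAT, or ATTGG), neither motif containing the other. CHR was found in 27 windows (71.1%), against 9.89% of 10751 promoters of tested genes and 15.4% of all 27305 promoters. The NF-Y box was found in 32 (84.2%), against 36.4% and 35.7%, and more than 1 match in 21 (55.3%), against 13.5% and 11.3%. Both motifs stood together in 24 windows (63.2%), against 4.18% of promoters of tested genes. Among 103 promoters of other mitosis genes, listed further below, CHR was found in 35.9% and the NF-Y box in 49.5%. More than 1 NF-Y box was found in 24.3% of these and both motifs in 18.4%. In 35 promoters of G1/S and DNA replication genes the shares were 2.86% for CHR and 51.4% for the NF-Y box. More than 1 NF-Y box was found in 31.4% of those.

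**Figure D1:**
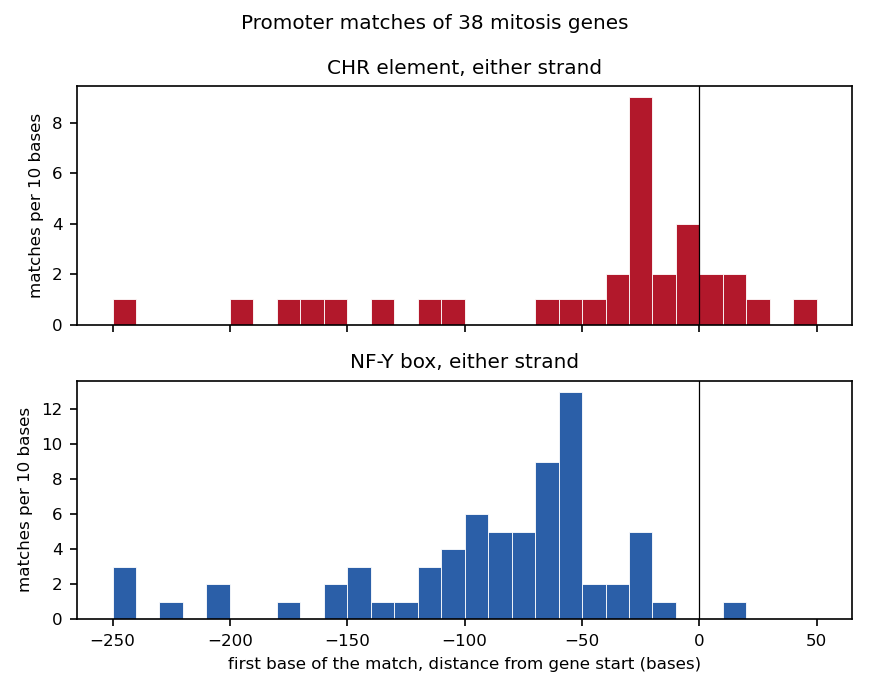
Matches to the CHR element (top) and the NF-Y box (bottom) in the promoters of 38 mitosis genes, as matches per 10 bases (vertical axis) against the distance of the first base from the gene start in bases (horizontal axis, negative before the start, vertical line at the start). Most CHR matches lie close to the start, and NF-Y boxes are most frequent a little further upstream.

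The 140 bases before the start are printed in lower case, 5′ to 3′ on the strand of the gene, with matches to either motif in capitals. The first set shows 5 genes that were higher in siCCNL2 and carry CHR close to the start.
CENPA, chr2:26785916-26786055, plus strand: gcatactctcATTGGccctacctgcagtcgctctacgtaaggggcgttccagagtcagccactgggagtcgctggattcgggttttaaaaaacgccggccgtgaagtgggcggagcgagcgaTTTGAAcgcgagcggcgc
INCENP, chr11:62123871-62124010, plus strand: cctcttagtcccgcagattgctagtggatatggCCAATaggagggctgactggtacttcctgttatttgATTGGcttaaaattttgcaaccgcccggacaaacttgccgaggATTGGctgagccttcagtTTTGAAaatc
ZWINT, chr10:56361260-56361399, minus strand: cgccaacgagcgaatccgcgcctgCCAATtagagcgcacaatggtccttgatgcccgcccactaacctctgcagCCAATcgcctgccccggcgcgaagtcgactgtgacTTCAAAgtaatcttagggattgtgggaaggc
KIF4A, chrX:70289964-70290103, plus strand: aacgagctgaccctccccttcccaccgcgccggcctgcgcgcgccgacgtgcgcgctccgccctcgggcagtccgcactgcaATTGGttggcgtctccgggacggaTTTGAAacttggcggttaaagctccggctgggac
CCNB2, chr15:59105006-59105145, plus strand: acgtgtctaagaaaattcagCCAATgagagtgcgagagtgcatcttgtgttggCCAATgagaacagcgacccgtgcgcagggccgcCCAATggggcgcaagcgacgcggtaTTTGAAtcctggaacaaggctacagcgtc

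The second set shows 3 genes with an NF-Y box followed by CHR that were not called.
PLK1, chr16:23678749-23678888, plus strand: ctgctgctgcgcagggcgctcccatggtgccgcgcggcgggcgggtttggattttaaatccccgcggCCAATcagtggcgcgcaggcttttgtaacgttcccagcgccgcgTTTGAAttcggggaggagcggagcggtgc
KIF23, chr15:69414209-69414348, plus strand: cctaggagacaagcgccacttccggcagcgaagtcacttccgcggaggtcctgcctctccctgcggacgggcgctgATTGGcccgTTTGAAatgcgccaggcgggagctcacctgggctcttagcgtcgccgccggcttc
CKS2, chr9:89311055-89311194, plus strand: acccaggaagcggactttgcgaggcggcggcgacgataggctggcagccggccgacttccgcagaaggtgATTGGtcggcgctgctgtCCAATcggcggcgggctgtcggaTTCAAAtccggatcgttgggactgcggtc

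The third set shows 2 genes that were called higher with NF-Y boxes and no match to the CHR sequence in the window.
SPC24, chr19:11155783-11155922, minus strand: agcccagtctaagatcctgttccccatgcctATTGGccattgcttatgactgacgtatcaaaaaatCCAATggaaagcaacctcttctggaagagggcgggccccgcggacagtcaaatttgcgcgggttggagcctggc
BUB1, chr2:110678064-110678203, minus strand: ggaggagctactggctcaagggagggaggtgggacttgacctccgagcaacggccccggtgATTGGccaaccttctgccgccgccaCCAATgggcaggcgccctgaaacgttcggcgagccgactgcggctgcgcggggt

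In both PLK1 and CCNB2, which were picked for printing by motif and call, the CHR begins 29 bases before the start, downstream of an NF-Y box, and only CCNB2 was called. Over the whole window, 13 of the 26 tested members with a CHR were higher (median log2 fold change 0.15), and 5 of the 11 without (0.08). Within 50 bases before to 45 after the start, a window chosen after the positions were seen, 22 of the 38 genes had a CHR, and 13 of the 21 tested among them were higher (median 0.18). Of the 16 without it, 5 were higher (median 0.06). The difference between these splits rests on the placement of the window, and neither was tested. Among all tested genes with a promoter entry, 301 had a CHR so placed, of which 25.2% were higher and 12.6% lower, against 19.0% and 18.1% of the 10450 without. Leaving out only the members described here, 280 remained, with 22.5% higher and 13.6% lower. Other genes of mitosis, listed further below, were not left out, and 26 of their 103 promoters had a CHR so placed. A match is a description of the sequence and not a measured binding site. Only the exact sequences given above were searched, so a gene without CHR here is one without that match.

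Mitosis genes that changed were, with 1 exception, higher in siCCNL2. Of the 44 genes that passed the filter on low counts, 22 rose, 1 fell and 21 were not called at an adjusted p under 0.05, where 17.2% of all 15346 tested genes were called higher and 16.5% lower (33.6% in either direction). Their median log2 fold change was 0.13, against 0.00 over all tested genes. The log2 fold change was above 0 for 36 of 44, against 7716 of 15346. The 3 siCCNL2 libraries lay above all 3 siNC libraries for 25 of the 44 and below them for 2, where 22.1% and 21.8% of all tested genes showed this. In the exact two-sided permutation test, 3 against 3 libraries cannot give a p below 0.1. NUSAP1 was the member not tested.

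The changes were small. Among the 22 genes called higher the median log2 fold change was 0.21, 2 changed at least 1.5-fold and 15 less than 1.2-fold. Summed over all 45 genes, the level was 7033, 6965 and 6685 CPM in siNC and 7552, 7572 and 7525 in siCCNL2, a ratio of 1.10, with the groups apart.

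**Figure D2:**
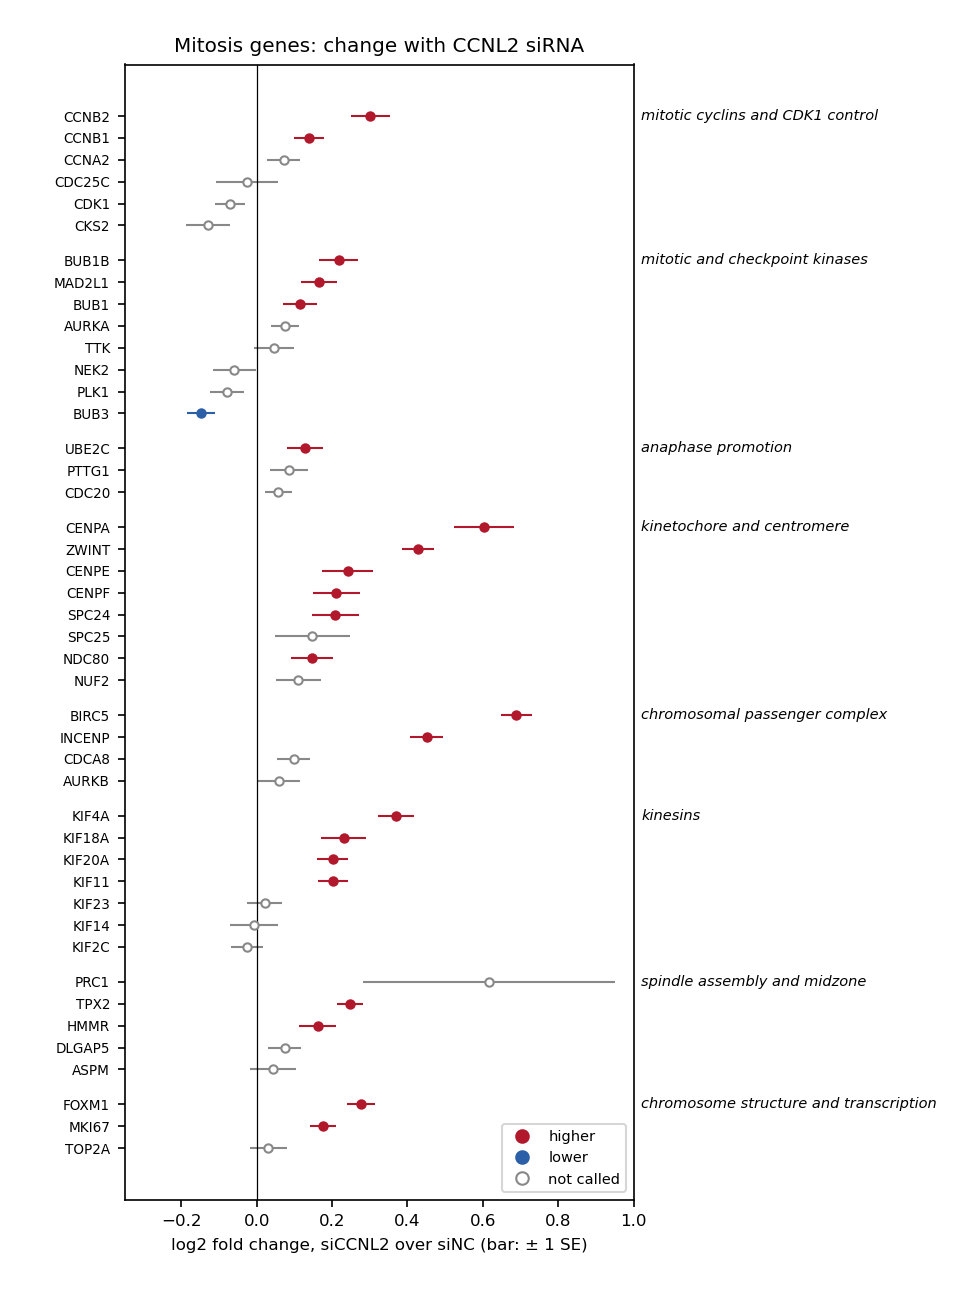
Log2 fold change of siCCNL2 over siNC (horizontal axis, bars ± 1 SE) for the 44 tested mitosis genes in 8 groups by role, filled where called. Of these, 22 lie to the right as called higher and 1, BUB3, to the left as called lower, and the bar of the scarcely counted PRC1 is the widest.

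Before the changes, the levels are given on the authors' deposited TPM-like score, which allows for gene length. CDC20 (mean score 581), UBE2C (515), TOP2A (488), CCNB1 (463) and TPX2 (459) were the highest. CENPE (42.3), SPC25 (40.8), CDC25C (37.9) and KIF14 (28.8) were low. PRC1 (1.04) and NUSAP1 (0.273) lay far under all others.

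Mitotic cyclins differed among themselves. CCNB2, a cyclin B bound to the Golgi apparatus in interphase, stood at 66.6, 67.5 and 65.95 CPM in siNC and 78.5, 81.9 and 86.4 in siCCNL2 (log2 fold change 0.30, SE 0.051, adjusted p = 5.52e-05). All siCCNL2 libraries were above all siNC libraries. CCNB1, the main cyclin B, stood at 286, 289 and 299.9 CPM and 304, 333 and 327 (0.14, SE 0.039, adjusted p = 0.0075), also without overlap but with a narrow gap. Their partner kinase CDK1 stood at 185, 183 and 189.5 CPM and 172, 186 and 174 (-0.07, SE 0.041, adjusted p = 0.196), and the groups overlapped. CCNA2, cyclin A of S phase and early mitosis (0.07), CDC25C, the phosphatase that activates CDK1 (-0.03), and CKS2, a small CDK-binding protein (-0.13), were not called, with adjusted p from 0.0965 to 0.843. CKS2 was called lower without siCCNL2 replicate 2 (log2 fold change -0.19, adjusted p = 0.0136). That library held the highest CKS2 of its group, at 77.6 CPM against 64.5 and 70.4. Within each library the ratio of CCNB2 to CDK1, a pair chosen after its values were seen, was 0.360, 0.368 and 0.348 in siNC and 0.457, 0.441 and 0.497 in siCCNL2.

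Checkpoint genes moved both ways. BUB1B, which encodes the checkpoint protein BUBR1, stood at 72.7, 70.9 and 72.5 CPM in siNC and 88.9, 82.5 and 79.7 in siCCNL2 (log2 fold change 0.22, SE 0.052, adjusted p = 0.0019). MAD2L1, the checkpoint protein that binds CDC20, stood at 91.4, 90.2 and 92.8 CPM and 97.3, 107 and 104 (0.17, SE 0.048, adjusted p = 0.0088). Neither gene's groups overlapped. BUB3, the partner that carries BUB1 and BUBR1 to kinetochores, was the member that fell, from 301, 310 and 308 CPM to 265, 279 and 287 (-0.15, SE 0.037, adjusted p = 0.0034), again without overlap. The ratio of BUB1B to BUB3 in each library, also chosen after its values were seen, went from 0.241, 0.229 and 0.235 to 0.335, 0.296 and 0.278. BUB1, the kinase that recruits BUBR1, was barely called, at 116, 108 and 115 CPM against 124, 122 and 121 (0.11, adjusted p = 0.0488). The BUB1 call was lost under 13 of 17 alternatives, among them the omission of siNC replicates 2 or 3 or of any siCCNL2 library (adjusted p 0.0534 to 0.226).

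The kinases of mitotic entry and spindle assembly were not called. PLK1, which acts on centrosomes, kinetochores and cytokinesis, stood at 109.7, 109.7 and 115 CPM in siNC and 105, 102 and 109 in siCCNL2 (log2 fold change -0.08, SE 0.045, adjusted p = 0.19). All siCCNL2 libraries lay below siNC for PLK1, by less than 1 CPM at the nearest. PLK1 shares 12.5% of its exon bases with genes on the opposite strand that had under 0.1 CPM. AURKA, the centrosomal Aurora kinase (0.07, adjusted p = 0.14), TTK, the checkpoint kinase also called MPS1 (0.05, 0.552), and NEK2, which splits centrosomes (-0.06, 0.47), had overlapping groups. AURKA was called higher without siNC replicate 3 (log2 fold change 0.11, adjusted p = 0.048).

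Genes of the anaphase step were nearly level. UBE2C, the ubiquitin-conjugating enzyme of the anaphase-promoting complex, stood at 147, 149 and 144.5 CPM in siNC and 152.5, 174 and 155 in siCCNL2 (log2 fold change 0.13, SE 0.047, adjusted p = 0.0383). The siCCNL2 libraries lay above siNC, with replicate 2 far from the other two, and without it the value was 0.07 (adjusted p = 0.257). The UBE2C call was also lost without siNC replicate 1, 2 or 3 (adjusted p 0.0736 to 0.0928). CDC20, the activator that the checkpoint holds back (0.06, adjusted p = 0.224), and PTTG1, securin, the inhibitor of separase (0.08, 0.216), were not called. Names of UBE2C pseudogenes held at most 0.703 CPM and PTTG2 and PTTG3P under 0.05 CPM, so that few reads were given to copies, but reads of near-identical copies cannot be told apart.

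Kinetochore and centromere genes rose in 6 of 8 cases (75.0%), against 17.2% of all tested genes, with a median log2 fold change of 0.21. CENPA, the histone that marks centromeres, stood at 18.2, 20.0 and 18.2 CPM in siNC and 28.7, 29.98 and 27.0 in siCCNL2 (log2 fold change 0.60, SE 0.080, adjusted p = 2e-06), and the lowest siCCNL2 library was well above the highest siNC library. CENPA shares 6.96% of its exon bases with SLC35F6 on the same strand, at a mean of 37.1 CPM. ZWINT, which links the KNL1 scaffold to the ZW10 complex, stood at 103, 108 and 109 CPM and 143.1, 142.6 and 143.7 (0.43, SE 0.043, adjusted p = 2.2e-08). For ZWINT the siCCNL2 libraries lay within about 1 CPM of each other. The ratio of CENPA to HJURP, its loading chaperone, a pair chosen after its values were seen, was 0.166, 0.188 and 0.169 in siNC and 0.262, 0.274 and 0.258 in siCCNL2.

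Within the NDC80 complex, the microtubule-binding arm of the kinetochore, all 4 subunits had values above 0. SPC24 stood at 39.4, 39.0 and 36.8 CPM in siNC and 43.8, 46.5 and 43.1 in siCCNL2 (log2 fold change 0.21, SE 0.061, adjusted p = 0.0101). NDC80 was called at 0.15 (adjusted p = 0.0438), a call lost under 12 of 17 alternatives, among them DESeq2's Wald test (0.0999) and each fit short of a library other than siCCNL2 replicate 2 (0.0565 to 0.174). NUF2 (0.11, adjusted p = 0.169) and SPC25 (0.15, 0.281) were not called, and their groups overlapped.

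The large kinetochore proteins depended on a single control library. CENPE, a kinesin that moves chromosomes to the spindle equator, stood at 118.5, 120.5 and 92.6 CPM in siNC and 134, 136 and 122 in siCCNL2 (log2 fold change 0.24, SE 0.068, adjusted p = 0.0072). CENPF, a coiled-coil protein of the outer kinetochore, stood at 278, 279.6 and 218 CPM and 317.5, 292 and 288 (0.21, SE 0.062, adjusted p = 0.0103). In both genes siNC replicate 3 was far below its group. Without it CENPE was at 0.13 (adjusted p = 0.0548) and CENPF at 0.10 (0.0752), and both were also lost with the DESeq2 Wald test (0.133 and 0.188) and in limma-trend on log2(score + 1) (0.127 and 0.17). The same library was more than 10% below the mean of the other two siNC libraries in 6 of 43 members of at least 10 CPM, namely CENPE, CENPF, ASPM, KIF14, TOP2A and NUF2. These have 3362 to 11690 exon bases (median 8360), against a median of 3646 in the other members. MKI67, the longest member at 12807 bases, was 6.87% below, and BUB3, at 8300 bases, was not below. The part of transcript length in this was not tested.

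**Figure D3:**
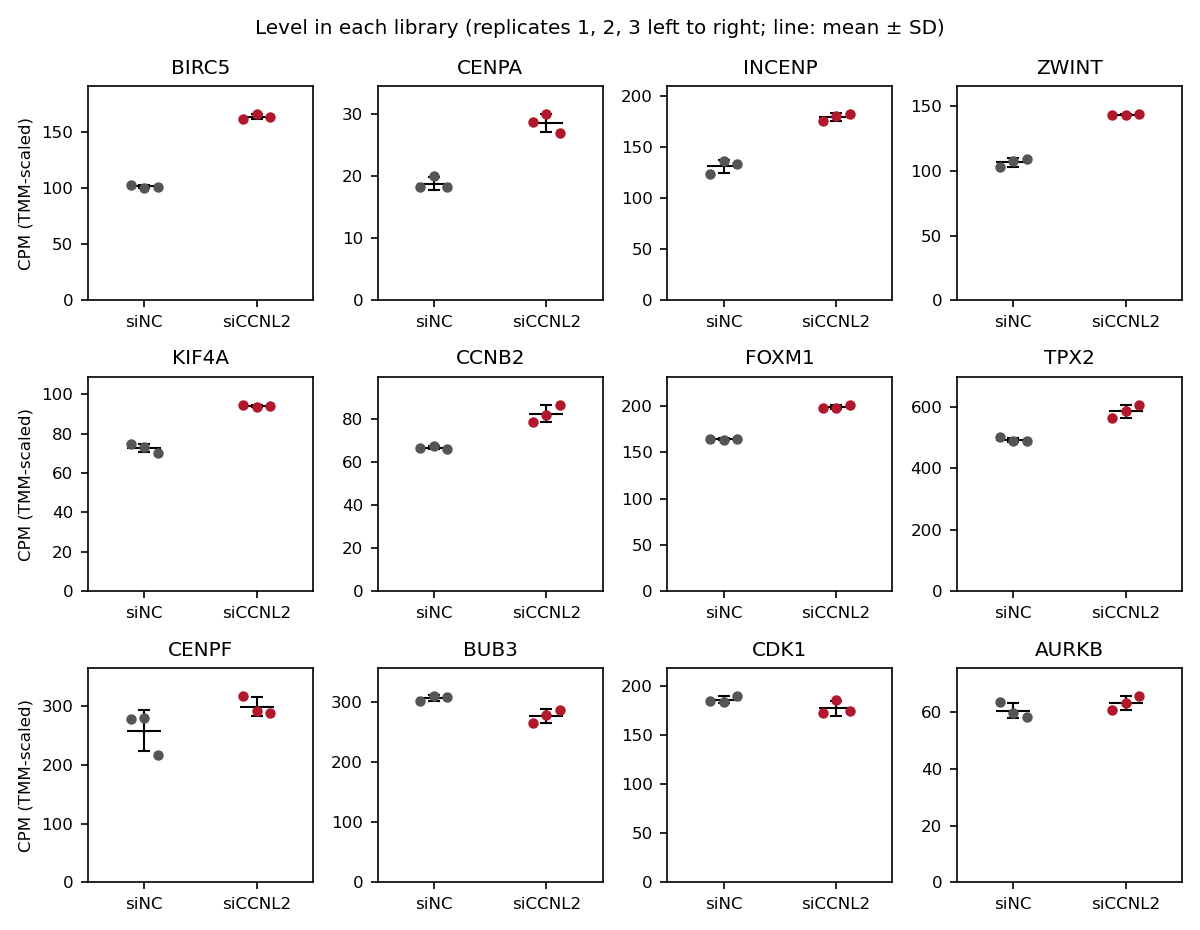
CPM in each library (vertical axis, starting at 0) for 12 mitosis genes, with siNC in grey and siCCNL2 in red, replicates 1 to 3 from left to right and mean ± SD as bars (n = 3 each). BIRC5, CENPA, INCENP and ZWINT separate widely, CENPF shows siNC replicate 3 far below the rest, BUB3 is lower in siCCNL2, and CDK1 and AURKB overlap.

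The chromosomal passenger complex showed the largest change and a split among its 4 subunits. BIRC5, survivin, which brings the complex to centromeres and also inhibits caspases, stood at 103, 100.4 and 101 CPM in siNC and 161, 166 and 163 in siCCNL2. This was the largest log2 fold change among the called members (0.69, SE 0.041, adjusted p = 3.44e-12). The spread within each group was under 3 CPM (SD 1.37 and 2.44). INCENP, the scaffold that activates Aurora B, stood at 124, 136.5 and 134 CPM and 175, 180.3 and 183 (0.45, SE 0.043, adjusted p = 1.25e-08), without overlap. AURKB, the kinase of the complex, stood at 63.5, 59.4 and 58.2 CPM and 60.4, 62.9 and 65.5 (0.06, SE 0.055, adjusted p = 0.452), and its groups overlapped. CDCA8, borealin, was also not called at 0.10 (SE 0.044, adjusted p = 0.0887), although its siCCNL2 libraries all lay above siNC. In each library, BIRC5 stood at 1.62, 1.69 and 1.73 times AURKB in siNC and at 2.66, 2.63 and 2.49 times in siCCNL2, and INCENP at 1.95, 2.29 and 2.29 times and 2.90, 2.86 and 2.79 times. Both pairs were chosen after their values were seen.

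Mitotic kinesins rose in 4 of 7 cases (57.1%), against 17.2% of all tested genes. KIF4A, a chromosome-bound motor of the midzone, stood at 74.6, 73.0 and 70.3 CPM in siNC and 94.5, 93.4 and 93.8 in siCCNL2 (log2 fold change 0.37, SE 0.048, adjusted p = 1.25e-06). KIF18A, which limits the length of kinetochore microtubules, stood at 45.5, 43.7 and 45.2 CPM and 55.8, 48.8 and 52.6 (0.23, SE 0.060, adjusted p = 0.0042). KIF20A, a motor of cytokinesis, stood at 151, 157 and 153 CPM and 174, 173 and 184 (0.20, SE 0.041, adjusted p = 3.93e-04). None of these overlapped between groups, and KIF11, the Eg5 motor that separates spindle poles, rose by 0.20 as well (adjusted p = 3.08e-04). KIF2C, a microtubule depolymerase (-0.02), KIF14 (-0.01) and KIF23, a subunit of centralspindlin (0.02), were not called, with adjusted p of 0.704 to 0.946. KIF4B, a copy of KIF4A, held 0.327 CPM against 83.3 CPM for KIF4A, and reads of the pair can be shared.

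Among spindle proteins TPX2, which activates Aurora A and nucleates microtubules, stood at 501, 489.9 and 489.8 CPM in siNC and 564, 588 and 606 in siCCNL2 (log2 fold change 0.25, SE 0.034, adjusted p = 3.48e-06). HMMR, a spindle-pole protein, stood at 79.6, 76.6 and 77.1 CPM and 83.8, 89.0 and 88.4 (0.16, SE 0.049, adjusted p = 0.0121). The groups were apart in both. HMMR was no longer called when siNC replicate 2 (adjusted p = 0.0513) or siCCNL2 replicate 3 (0.0553) was left out. DLGAP5, a microtubule-bundling protein (0.07, adjusted p = 0.22), and ASPM, a spindle-pole protein (0.04, 0.632), were not called.

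PRC1, the microtubule crosslinker of the midzone, and NUSAP1, a spindle protein, were nearly uncounted. PRC1 had 17, 18 and 18 counts in siNC and 21, 31 and 26 in siCCNL2 (log2 fold change 0.62, SE 0.33, adjusted p = 0.168). NUSAP1 had 3, 4 and 2 counts and 8, 5 and 5, too few for the test. In GENCODE release 29 on GRCh38, 62.2% of the exon bases of NUSAP1 lie in exons of another gene on the same strand (AC087721.2), and 57.6% of those of PRC1 (AC068831.7). No other member had more than 10.2% so shared. The annotation used for counting is not given in the sources used here, and the part of such sharing in these low counts was not tested.

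FOXM1, the transcription factor that activates many genes of late G2 and mitosis, stood at 164, 163 and 165 CPM in siNC and 197.5, 197.3 and 201 in siCCNL2 (log2 fold change 0.28, SE 0.038, adjusted p = 3.05e-06), with tight groups. It shares 15.9% of its exon bases with ITFG2 on the opposite strand, at a mean of 24.1 CPM. MKI67, the Ki-67 proliferation marker that coats mitotic chromosomes, stood at 666, 659 and 617 CPM and 756, 714 and 725 (0.18, SE 0.035, adjusted p = 3.39e-04). TOP2A, the topoisomerase that untangles sister chromatids, was the most counted member in CPM and was not called, at 961.5, 930.5 and 795 CPM and 976, 882 and 887 (0.03, SE 0.050, adjusted p = 0.68). Its libraries overlapped, with siNC replicate 3 the lowest.

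Summed by role, the passenger complex moved most, from 421, 428 and 425.5 CPM to 534, 558 and 548 (ratio 1.29). Kinetochore genes went from 695, 699.8 and 602 to 809, 794 and 772 CPM (ratio 1.19), and spindle proteins from 909.9, 896 and 848 to 989.9, 996 and 1010 (1.13). Kinases and checkpoint proteins gave 1061, 1048 and 1076 against 1058, 1078 and 1081 CPM (1.01), and these groups overlapped. Each sum is weighted to its most abundant genes, and differences between roles were not tested.

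Other genes of the same process were read from 6 further lists of 115 names, 111 of them tested. Of these 37 rose, 11 fell and 63 were not called, with a median log2 fold change of 0.05. These are 33.3% and 9.91% of the 111, against 17.2% and 16.5% of all tested genes, the background for each list that follows. Among 18 tested genes of the inner kinetochore and centromere loading, 6 rose, led by CENPL (0.44) and CENPI (0.41), and CENPQ fell (-0.30). The CENPQ call was lost without siNC replicate 1 or 2 and without siCCNL2 replicate 1 or 3 (adjusted p up to 0.179). Of 17 outer kinetochore and checkpoint genes, 7 rose and 1 fell.

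That list held the largest changes among the mitosis genes listed, members included. ZW10, a subunit of the complex that brings dynein to kinetochores, stood at 16.3, 18.4 and 17.2 CPM in siNC and 40.0, 41.8 and 42.0 in siCCNL2 (log2 fold change 1.25, SE 0.074, adjusted p = 2.6e-12). SKA2, of the SKA complex that tracks microtubule ends, stood at 107.5, 106 and 108 CPM and 189, 211 and 190 (0.87, SE 0.045, adjusted p = 2.89e-13). Both were separated by far more than the spread in either group, and both exceeded the 0.69 of BIRC5. MAD2L1BP, which helps to silence the checkpoint, fell (-0.35, adjusted p = 6.58e-04).

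Of 17 genes of the anaphase-promoting complex, 3 rose and 3 fell, 17.6% in each direction and so near the shares over all genes, with ANAPC13 (0.47) and FBXO5 (0.19) higher and ANAPC2, its cullin subunit (-0.34), and CDC23 (-0.20) lower. FBXO5, which inhibits the complex, and CDC23 had overlapping groups. FBXO5 lost its call without siNC replicate 1 or 2 or siCCNL2 replicate 2 or 3, and CDC23 without those same libraries. In condensin and cohesin, 7 of 19 genes rose and 2 fell, and the condensin subunits NCAPD2 (0.31) and NCAPG2 (0.28) were highest. SMC2, a condensin core subunit (-0.15), and ESPL1, separase (-0.11), fell. SMC2 was lost without siNC replicate 1 or 2 or siCCNL2 replicate 2 or 3 (adjusted p up to 0.235), and ESPL1 without any library but siCCNL2 replicate 1 (up to 0.177).

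Among 20 further spindle and cytokinesis genes 5 rose (25.0%) and 2 fell (10.0%). TACC3, a spindle clathrin partner (0.44), and CEP55, of abscission (0.30), rose. SPAG5, astrin, fell from 64.1, 59.6 and 58.5 to 41.7, 43.9 and 47.8 CPM (-0.45, SE 0.061, adjusted p = 2.68e-06), and KIF2A (-0.19) fell, a call lost in limma-trend on log2(score + 1) (adjusted p = 0.0515). Of 20 genes of mitotic entry and the MuvB-DREAM complexes, which repress and then activate CHR promoters, 9 rose and 2 fell. ENSA, the phosphatase inhibitor activated by Greatwall kinase, rose from 121.5, 120.1 and 127 to 212.4, 226 and 212.3 CPM (0.82, SE 0.042, adjusted p = 2.1e-13). TFDP1, the partner of E2F factors, rose by 0.43. WEE1, the kinase that holds CDK1 inactive (-0.19), and CDC25B, its opposing phosphatase (-0.12), fell. WEE1 was not called without siNC replicate 2 or siCCNL2 replicate 3 (adjusted p up to 0.0586), and CDC25B without any of the 6 libraries (up to 0.165).

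Genes of the preceding step of the cycle are set beside these. Of 40 genes of G1/S and DNA replication, 19 rose (47.5%) and 2 fell, with a median log2 fold change of 0.15, beside 22 of 44 and 0.13 for the mitosis genes. TYMS (0.55) and PRIM1 (0.41) were highest, and GINS1 (-0.17) and RFC3 (-0.14) were the 2 that fell. TYMS shares 39.15% of its exon bases with ENOSF1 on the opposite strand, at a mean of 48.6 CPM. The TYMS value ran from 0.36 to 0.70 over the 17 alternatives. PRIM1 shares 16.2% of its exon bases with genes on the same strand. The GINS1 call needed siNC replicates 2 and 3 and siCCNL2 replicates 1 and 3 (adjusted p up to 0.174 when any was left out). The RFC3 call needed siNC replicates 1 and 3 and siCCNL2 replicate 1 (up to 0.114). CHR was found in 1 of 35 promoters of the G1/S and replication genes (2.86%), and the NF-Y box in 18 (51.4%). The difference between these groups was not tested.

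**Figure D4:**
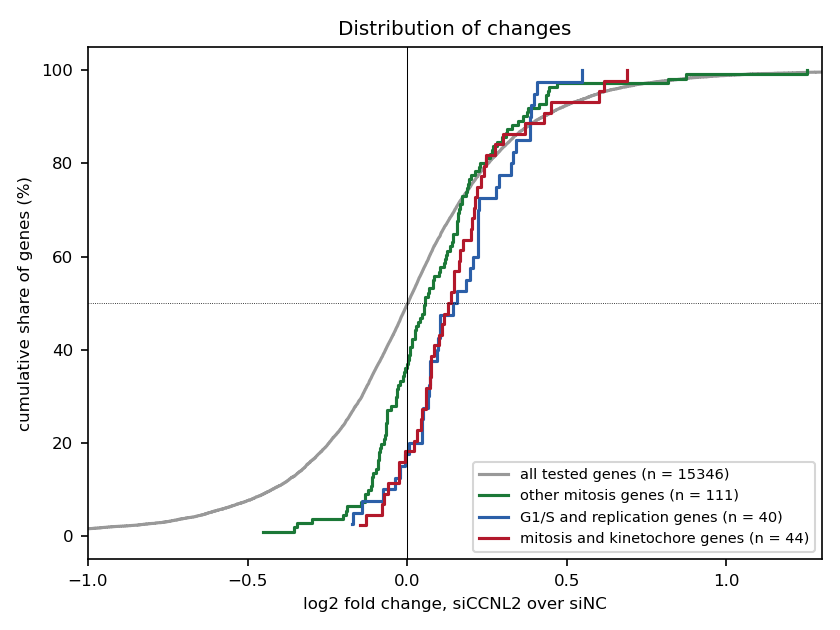
Cumulative share of genes (vertical axis, %) by log2 fold change of siCCNL2 over siNC (horizontal axis, shown from -1 to 1.3) for 44 mitosis and kinetochore genes, 111 other mitosis genes, 40 G1/S and replication genes and all 15346 tested genes. The curves of the mitosis and the G1/S genes lie close together, to the right of all genes around the dotted 50% line.

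Of the 23 called members, 16 held their call and sign in each of 17 alternatives of scaling, filter, test, unit, threshold, block and omitted library. These comprise BIRC5, CENPA, INCENP, ZWINT, KIF4A, CCNB2, FOXM1, TPX2, KIF18A, BUB1B, KIF20A, KIF11, MKI67, MAD2L1, CCNB1 and, lower, BUB3. The other 7 were CENPE, CENPF, SPC24, HMMR, NDC80, UBE2C and BUB1, of which SPC24 was lost only at a threshold of 0.01.

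**Figure D5:**
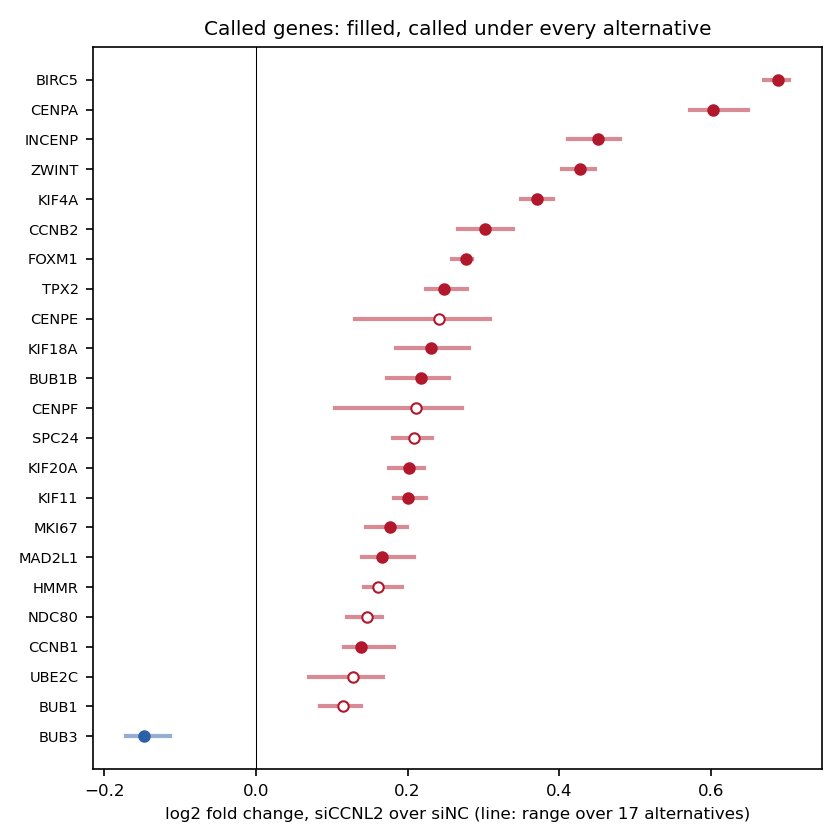
Log2 fold change of siCCNL2 over siNC (horizontal axis) for the 23 called mitosis genes, with points for the reported value and lines for the range over 17 alternatives. Filled points mark the 16 genes called under each of these, and CENPE and CENPF have the longest lines.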

How the data were processed

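The data are RNA-seq of 6 libraries, 3 siNC and 3 siCCNL2, grouped by their titles. The authors deposited raw counts of reads per gene, as whole numbers, and a TPM-like score that sums to 1000000 per library over distinct names. Per the submitters' processing notes, fastp 0.23.0, HISAT2, HTSeq 2.0.1 and GRCh38 were used, with no role or order. For the annotation, library kit and strand setting, the entry is: not given in the sources used here. Reads of overlapping genes cannot be told apart.

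Both tables hold 62710 rows. Repeated names carry equal values, and each of the 60835 names was used once. Genes were kept with filterByExpr (15346 genes, at least 99.8% of counts per library). They were tested with edgeR 4.0.16 in R 4.3.3 (TMM, glmQLFit, glmQLFTest, no covariates, Benjamini-Hochberg over all tested genes, threshold 0.05), after the code was tested on simulated data. Log2 fold changes are siCCNL2 over siNC, and the SE is the size over the square root of F. No 2 libraries of a group were alike within sampling noise (chi-square per degree of freedom 2.19 to 3.61). No library was therefore merged with another as a repeat deposit, which does not show that they are separate cultures.

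Members and lists were chosen with earlier results of these data known, so no p over a list is given. In each role up to 3 called members by size and those in the rarer direction have all library values. From each other list up to 2 called genes per direction with at least 5 CPM are named. Exon sharing is from GENCODE release 29 and promoters are from RefSeq. Alternatives used DESeq2 1.42.0, limma 3.58.1, other scalings, filters, units and thresholds, a replicate block, and omission of each library. Intervals and standard errors cover these libraries only.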

Additional observations from a re-analysis of the deposited data

How the results depend on the processing

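Over 17 alternatives the number of mitosis genes called higher ran from 16 (threshold 0.01) to 22. It was 17 by the DESeq2 Wald test and by limma-trend on log2(score + 1) or log2(score + 0.1). The share of all tested genes called higher also fell, from 17.2% to 12.2% at the threshold of 0.01. It was 14.2% by the DESeq2 Wald test, 13.3% and 13.2% in the limma-trend fits, and 13.5% to 15.8% with a library left out. Leaving out single libraries gave 18 to 20 higher, 1 or 2 lower (2 without siCCNL2 replicate 2, where CKS2 joined BUB3) and a median log2 fold change from 0.12 to 0.16 (the latter without siCCNL2 replicate 1). The median over all tested genes stayed between -0.02 and 0.01 under every scaling. With upper-quartile factors 19 members were higher and the median was 0.11, and the calls over all genes turned from 2634 higher and 2525 lower to 2368 and 2783. Of the 21 tested members without a call, 2 gained one, AURKA and CKS2, each on leaving out 1 library. Of the 27 other named genes, CCNL2 included, 17 kept their call and direction under all 17.

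Same-numbered libraries of the groups had deviations correlated at 0.043, 0.023 and 0.026, each library highest with its own number. Correlations between unlike numbers ran from -0.03 to 0.005. The labels state no pairing and the reported fit used none, and whether the numbers are pairs was not tested. With the replicate number as a block, 22 members were higher and 1 lower, with 5234 genes called in all against 5159, and no call of a member changed. Among the members, BUB1 at 8.29% higher was the smallest change called. Elsewhere in the lists FEN1 was called at 7.32% higher and ESPL1 at a change of -7.275%.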

Other observations

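Low counts of genes that share 50% or more of their exon bases with same-strand genes were seen beyond PRC1 and NUSAP1. In GENCODE release 29, 771 protein-coding genes of the count table have 50% or more of their exon bases in exons of another gene on the same strand. Of these, 12.3% passed the filter on low counts, and their median level was 0 CPM. Read-through genes, which span neighbouring genes, were not set apart in this count. Among the 16486 protein-coding genes with no such sharing, 63.2% passed and the median was 7.06 CPM. The 2491 genes with some sharing, but under 50%, were not low, as 72.8% passed and their median was 8.02 CPM. Among the listed genes the inner kinetochore gene CENPS, with 64.8% shared with CENPS-CORT, stayed under 1 CPM in all libraries, and so did the immune marker CD68, with 81.7% shared. The part of the counting in these low values was not tested.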
